A study of Mus musculus with 6 samples.

Results

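The rearranging antigen receptor loci were represented on the arrays by 62 of 24922 probe sets, the groups of probes that are summarised to 1 value. They were chosen by name: every gene symbol that the platform annotation gives for the probe set had to begin like a T cell receptor gene segment (Tra, Trb, Trd or Trg, followed by v, d, j or c, or Tcra, Tcrb or Tcrg) or like an immunoglobulin segment or constant region (Ighv, Ighm, Ighg, Igha, Ighd, Igkv, Igkc, Iglv, Iglc, Igh- or Igk-). The rule uses no measured value. Of the 62 probe sets, 35 belonged to the T cell receptor and 25 to immunoglobulin. The other two, Tradd and Ighmbp2, match by their letters alone and encode a death receptor adaptor and a helicase, so they are described apart. The samples were Foxp3+ regulatory T (Treg) cells from the pancreas (3 arrays) and from the spleen (3 arrays) of female prediabetic NOD mice, a strain that develops autoimmune diabetes, all 10 weeks old and all carrying the Foxp3-ires-gfp reporter on the background labelled NOD NRB_SFB+. Cells of both tissues were sorted by the same gate, CD4+ TCRb+ CD45+ GFP+ and DAPI-. The reporter marks cells in which Foxp3 is expressed. The labels do not say whether an array holds cells of 1 mouse or of several, and p-values here speak only to differences from array to array, part of which may be technical.

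Each T cell receptor and each antibody is encoded by a gene that is cut and joined in the developing lymphocyte from 1 variable (V) segment, 1 joining (J) segment and, for some chains, 1 diversity segment, and is then spliced to a constant region. Conventional CD4 T cells, Treg cells included, carry a receptor of 1 α and 1 β chain, whereas γδ T cells carry a γ and a δ chain. B cells and plasma cells make antibodies of a heavy chain and a κ or λ light chain, and the heavy chain constant region sets the antibody class (Ighm for IgM, Ighg3 for IgG3, Igha for IgA). A V segment's signal in a cell population thus depends both on how many cells use that segment and on how much receptor RNA each cell holds, and in bulk RNA fewer cells of a type and less RNA per cell cannot be told apart.

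The 35 T cell receptor probe sets comprised 30 of the α locus, 1 of β, 3 of γ and 1 of δ, and all 25 symbols they list are V segments in RefSeq. The 25 immunoglobulin probe sets comprised 9 of the heavy chain, 14 of κ and 2 of λ, and their 27 symbols are 20 V segments, 2 V segment pseudogenes and 5 constant regions. Assignment to single segments was limited, since 38 of the 62 probe sets list several symbols. The 60 receptor probe sets carried 21 different symbol lists for the T cell receptor and 19 for immunoglobulin. Trav3n-3 and Trav3-3 were listed together on 19 of the 30 α probe sets. A probe set with several symbols is therefore named here by its chain and its number, and its signal is not given to any one segment. No probe set of the constant regions of the T cell receptor was among the members, so total α, β, γ or δ chain RNA is not analysed here.

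The labelled cell type was seen in both tissues. Of 12 Treg and CD4 T cell markers, 12 were above the background level (a log2 intensity of 5.99, the 95th percentile of the olfactory and vomeronasal receptor probe sets) and 0 passed the test (limma, adjusted p under 0.05), with 1 higher in pancreas at an unadjusted p under 0.05. Foxp3, the Treg transcription factor, was at 11.47, 11.66 and 11.33 on pancreas arrays 1 to 3 and at 11.15, 11.74 and 11.67 on spleen arrays 1 to 3. Of 14 measured genes of acinar cells, the enzyme-secreting cells of the pancreas, 14 lay wholly higher in pancreas and 9 passed the test. Their summed intensity was 19203, 30492 and 14741 on pancreas arrays 1 to 3, against 1292, 1221 and 2931 on spleen arrays 1 to 3. The part of RNA from pancreatic tissue in the values below was not tested. Array medians over the 24922 probe sets ran from 82.0 to 92.0 in intensity, and the interquartile range of the log2 values ran from 2.23 (pancreas array 3) to 3.07 (pancreas array 1), so the width of the distribution differed within each tissue.

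Immunoglobulin probe sets were higher in pancreatic than in splenic Treg samples by a median of 1.03 on the log2 scale, against a median of 0.17 for T cell receptor probe sets and 0.01 for all probe sets. The T cell receptor median was 0.02 without spleen array 1 and 0.30 without pancreas array 1. Many immunoglobulin values were dim: both tissues' means were at or below background for 10 of the 25, and the lower tissue's for another 12. With the 12 at their lower bound and the 10 set to 0, the immunoglobulin median was 0.48, so 1.03 describes signals that are partly not above background. A single member of the 62 passed the test (limma, Benjamini-Hochberg over all 24922 probe sets, adjusted p under 0.05), beside 0.305% of all probe sets. It was an immunoglobulin heavy chain probe set, higher in pancreas, a direction called for 0.253% of all probe sets, while 0.0522% were called lower. None of the 35 T cell receptor probe sets passed. At an unadjusted p under 0.05, 12 immunoglobulin and 3 T cell receptor probe sets were higher in pancreas, beside 3.26% of all probe sets, and 0 and 1 were lower, beside 3.35%. Of the 25 immunoglobulin probe sets, 24 had a higher mean in pancreas, 13 had all pancreas arrays above all spleen arrays, and 0 had the reverse. Across all probe sets 4.98% lay wholly higher in pancreas and 5.54% wholly lower. Of the 35 T cell receptor probe sets, 2 lay wholly higher and 0 wholly lower. A fitted log2 fold change above 1 was found for 13 immunoglobulin and 2 T cell receptor probe sets, beside 1.28% of all probe sets, and with dim values at their bound 8 immunoglobulin and 2 T cell receptor probe sets exceeded 1. Members share arrays, symbols and annotated transcripts, so no test was made between the classes.

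**Figure D1:**
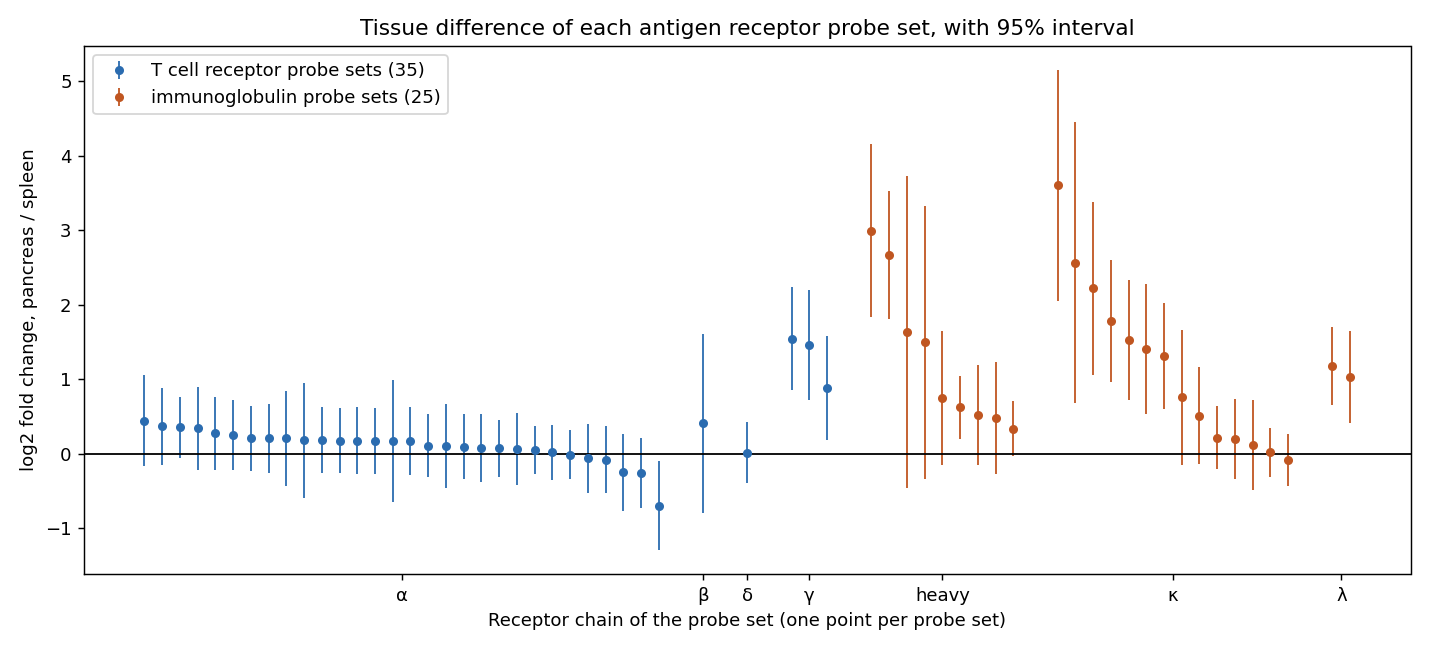
Log2 fold change, pancreas over spleen, of each of the 35 T cell receptor (blue) and 25 immunoglobulin (orange) probe sets, grouped by chain, with the 95% interval of the limma fit over 6 arrays. The α probe sets lie between -0.70 and 0.44, the 3 γ probe sets between 0.88 and 1.54, and the immunoglobulin probe sets reach 3.60. Points are fitted values and not bounds. Both tissues' means were at or below background for 10 immunoglobulin probe sets, and the lower tissue's for another 12. For the T cell receptor these numbers were 3 and 1.

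The class medians on the single arrays showed the same contrast. The median over the 25 immunoglobulin probe sets was a log2 intensity of 6.87, 6.10 and 6.77 on pancreas arrays 1 to 3, against 5.60, 5.19 and 4.88 on spleen arrays 1 to 3. The tissues did not overlap. For the 35 T cell receptor probe sets it was 8.98, 9.56 and 9.43 in pancreas, against 8.71, 9.47 and 9.23 in spleen, and the tissues overlapped. Immunoglobulin probe sets above background numbered 15, 13 and 18 of 25 on the pancreas arrays and 11, 3 and 2 on the spleen arrays. T cell receptor probe sets above background numbered 31 or 32 of 35 on every array. Without pancreas array 3 the immunoglobulin median was 0.56 in place of 1.03. The count of immunoglobulin calls was 0 without pancreas array 1, spleen array 2 or spleen array 3, and 3 without pancreas array 3.

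**Figure D2:**
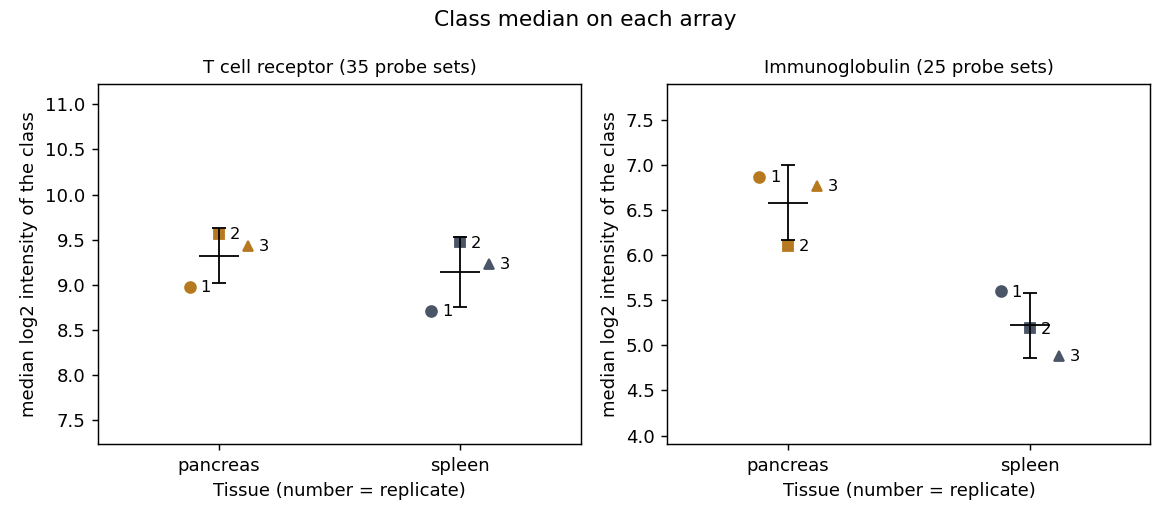
Median log2 intensity over the 35 T cell receptor probe sets (left) and the 25 immunoglobulin probe sets (right) on each array, with the replicate number beside each point and the mean and SD of the 3 arrays as bars (axes of equal span that do not start at 0). The immunoglobulin medians are 6.10 to 6.87 in pancreas and 4.88 to 5.60 in spleen, whereas the T cell receptor medians of the tissues overlap.

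Among the immunoglobulin heavy chain probe sets, the member past the test was 10403018, whose annotation lists Ighg3, Igha, Ighv1-33 and Ighv1-26. It had a log2 intensity of 8.96, 8.93 and 7.76 on the pancreas arrays, against 6.41, 5.96 and 5.27 on the spleen arrays. With 1 of 3 spleen arrays above background, it was at least 5.35-fold higher in pancreas, a lower bound for which spleen arrays below background were set to the background level (log2 fold change 2.67 ± 0.38 SE, limma adjusted p = 0.0379). Median centring of the arrays ended the call (adjusted p = 0.111) as did leaving out pancreas array 1 or 2 or spleen array 2 or 3 (adjusted p between 0.0957 and 0.137). Probe set 10403015 lists the same 4 symbols and shares 9 annotated transcripts with it. It was at 9.37, 9.80 and 7.52 in pancreas, against 6.24, 5.60 and 5.88 in spleen. It was at least 7.07-fold higher without passing the test (adjusted p = 0.0646), and it passed without pancreas array 3 (adjusted p = 0.000308). On both probe sets pancreas array 3 was the lowest of its tissue and still above every spleen array.

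The probe sets that name Igha alone, the constant region of IgA, showed another order of the arrays. Probe set 10403034 was at 6.03, 6.66 and 9.58 in pancreas, against 6.70, 5.81 and 5.30 in spleen. Probe set 10403063, annotated to the same 7 transcripts, was at 5.80, 6.52 and 9.95 in pancreas, against 6.50, 5.70 and 5.18 in spleen. Pancreas array 3 stood far above the other 5 arrays, while pancreas array 1 lay below spleen array 1, so the tissues overlapped. The spleen means of both were below background. With dim spleen arrays raised to background, the pancreas means were 2.30-fold and 2.40-fold higher. The fitted log2 fold changes of 1.49 and 1.63 did not pass the test (adjusted p = 0.935 and 0.960). Their 95% intervals, -0.34 to 3.32 and -0.46 to 3.72, included no change. Without pancreas array 3 the log2 fold changes were 0.41 and 0.37. The array that was highest for Igha alone was thus the lowest pancreas array for the 4-symbol heavy chain probe sets.

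Ighm, the constant region of IgM and of the B cell receptor of naive B cells, was named alone by 3 probe sets. Probe set 10402864 was at 6.87, 6.31 and 6.77 in pancreas, against 6.08, 6.06 and 5.95 in spleen, without overlap between the tissues. The difference was 1.54-fold and did not pass the test (adjusted p = 0.353). Probe set 10402991 was at 6.92, 6.94 and 7.95 in pancreas, against 7.25, 6.85 and 6.28 in spleen, and the tissues overlapped. The third, 10403069, was below background on all 6 arrays, as was the probe set that names Ighg3 alone, at 4.26, 4.42 and 5.42 in pancreas and 4.42, 4.12 and 3.99 in spleen. A heavy chain probe set listing Ighv3-6 and Igha was below background on all arrays as well.

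The κ light chain probe sets included several with all pancreas arrays above all spleen arrays. Probe set 10538871, annotated to both Igkv1-133 and Igkv1-135, was at 8.81, 9.97 and 6.75 in pancreas, against 5.44, 4.83 and 4.47 in spleen. All spleen arrays were below background, and the difference of at least 5.75-fold did not pass the test (log2 fold change 3.60 ± 0.68 SE, adjusted p = 0.0929), but passed without pancreas array 3 (adjusted p = 0.000648). Its order of pancreas arrays, with array 2 highest and array 3 lowest, was that of heavy chain probe set 10403015. Igkv10-96 was at 9.02, 4.88 and 6.69 in pancreas, against 4.56, 4.17 and 4.18 in spleen. Here pancreas array 1 was the high one and pancreas array 2 was below background. It was at least 1.84-fold higher in pancreas without passing the test (adjusted p = 0.434), and the 95% interval of its log2 fold change ran from 0.68 to 4.45. The fitted log2 fold change of 2.56 was 1.49 without pancreas array 1 and 3.55 without pancreas array 2.

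Another 5 κ probe sets list Igkv4-59 among their symbols, and 4 of these also list Igkc, the κ constant region. All 5 had pancreas arrays above all spleen arrays and none passed the test (adjusted p between 0.114 and 0.272), with log2 fold changes from 1.31 to 2.22. The spleen means of all 5 were below background, and at their lower bounds the log2 differences ran from 0.22 to 1.91. The highest of them, 10545184, was at 8.86, 6.65 and 8.44 in pancreas, against 6.26, 5.63 and 5.41 in spleen, at least 3.75-fold higher (adjusted p = 0.166), and it passed without pancreas array 2 (adjusted p = 0.0230). Pancreas array 2 was the lowest pancreas array on all 5. These probe sets share annotated transcripts with each other and are not independent readings. The remaining κ probe sets differed less. Igkv19-93, above background on all arrays, was at 6.93, 6.74 and 7.34 in pancreas, against 6.84, 6.79 and 6.75 in spleen, and Igkv4-55, Igkv4-91, Igkv6-20 and Igkv8-30 were below background on all arrays. Pancreas array 3 was the only array above background for the probe set listing Igkv6-14 and Igkv6-15 (6.80) and for Igkv9-120 (6.46).

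The λ light chain was measured by a pair of probe sets that list Iglv1, Iglv2 and the constant region Iglc1. Probe set 10438405 was at 7.00, 6.78 and 7.08 in pancreas, against 6.11, 5.96 and 5.28 in spleen. It was at least 1.90-fold higher in pancreas, without overlap (log2 fold change 1.17, adjusted p = 0.108). Its 3 pancreas arrays lay closer together (SD 0.16) than those of any other immunoglobulin probe set with a log2 fold change above 1. The other λ probe set, 10438415, was at 6.41, 5.35 and 6.16 in pancreas, against 5.20, 4.90 and 4.74 in spleen, and the means of both tissues were below background.

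**Figure D3:**
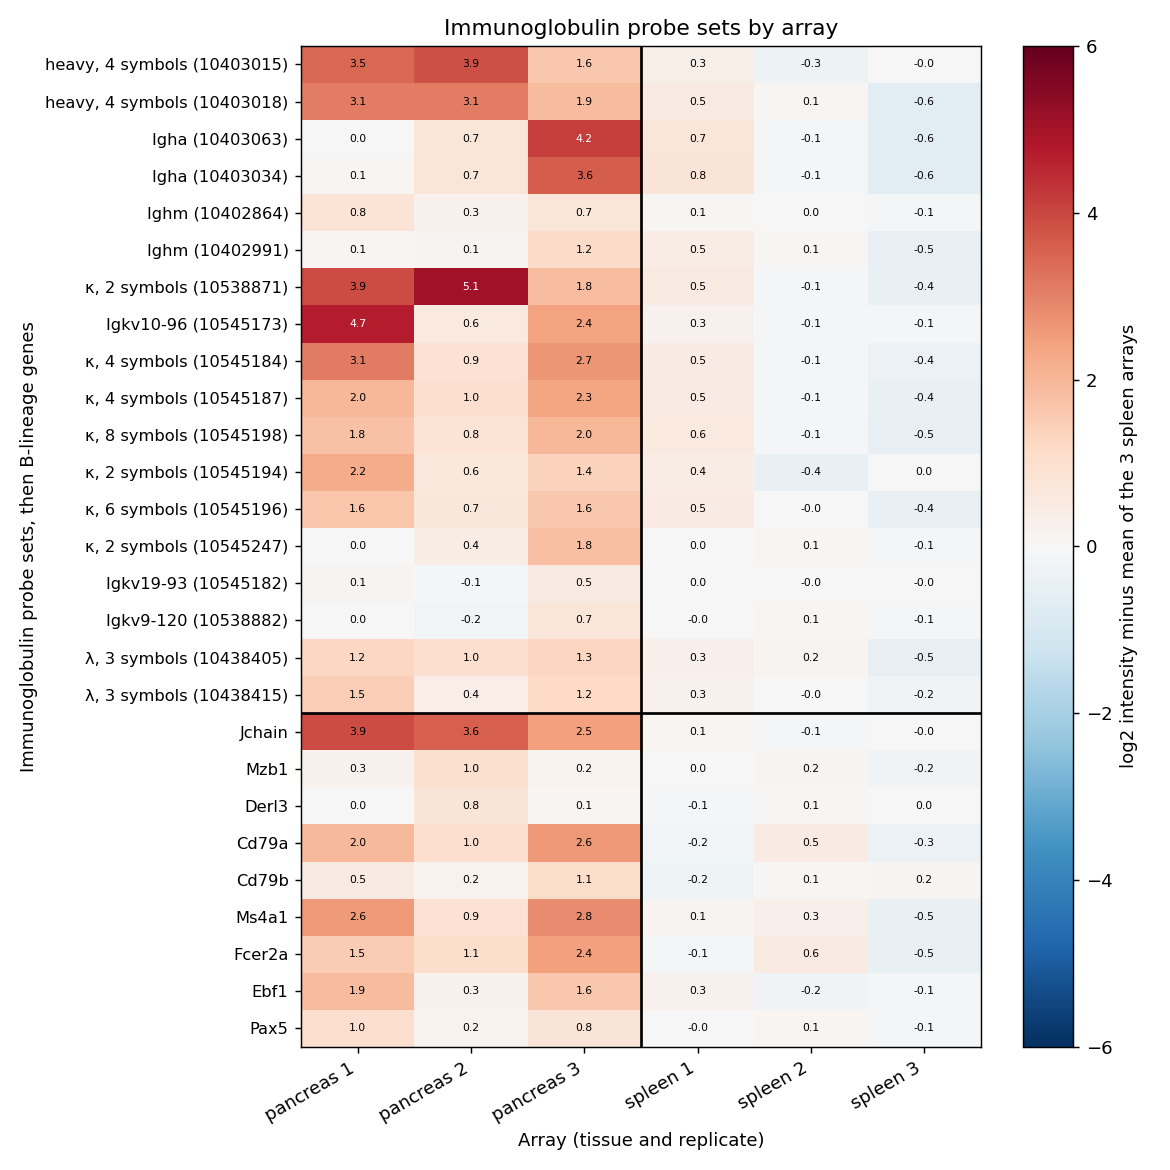
Log2 intensity of the 18 immunoglobulin probe sets above background on at least 1 array, and of 9 B-lineage genes, on each of the 6 arrays, as the difference from the mean of the 3 spleen arrays; colour and number give the same value, and values of dim probe sets are not bounds. The 9 genes were not chosen by a set rule. Genes of the same lists that are not shown include Tnfrsf17, Vpreb3 and Cd72 (log2 fold changes -0.01, 0.10 and 0.10) and Bank1 (1.62). The 4-symbol heavy chain and Igkv1 probe sets are lower on pancreas array 3 than on pancreas arrays 1 and 2, Igha stands out on pancreas array 3, and Igkv10-96 and the Igkc-listing κ probe sets are lower on pancreas array 2 than on the other pancreas arrays.

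The pancreas arrays therefore differed among themselves in which immunoglobulin probe sets were high. Of the 15 immunoglobulin probe sets with a pancreas mean above background, array 1 was the highest pancreas array for 6, array 2 for 2 and array 3 for 7, and array 2 was the lowest for 9. The 9 include the 5 probe sets listing Igkv4-59, which share annotated transcripts. Over all 24922 probe sets, arrays 1 to 3 were the highest pancreas array for 7600, 6449 and 10873. Over the 14893 with a mean over all 6 arrays above background they were so for 6928, 4501 and 3464. The 15 were chosen by the pancreas mean alone, so these sets are not matched. The lowest array was not counted over all probe sets. The median SD over the 3 pancreas arrays was 0.63 for immunoglobulin probe sets, against 0.26 for T cell receptor probe sets and 0.25 for all probe sets. Over the 3 spleen arrays it was 0.44 for immunoglobulin, 0.23 for the T cell receptor and 0.18 for all probe sets. Spleen array 1 was the highest spleen array for 19 of the 25 immunoglobulin probe sets and for 0 of the 35 T cell receptor probe sets. It was so for 11532 of all 24922 probe sets.

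Genes of the B cell lineage were measured on the same arrays. Of 14 measured B cell genes 0 passed the test over all probe sets (limma), 10 were higher at an unadjusted p under 0.05, all 14 had a higher mean in pancreas, 7 lay wholly higher, and their median log2 fold change was 0.71. Their summed intensity was 2089, 1256 and 2677 on the pancreas arrays, against 1021, 1113 and 987 on the spleen arrays. Ms4a1, which encodes the B cell protein CD20, was at 8.00, 6.32 and 8.26 in pancreas, against 5.59, 5.77 and 4.98 in spleen (adjusted p = 0.150). Cd79a, a signalling subunit of the B cell receptor, was at 7.73, 6.80 and 8.36 in pancreas, against 5.62, 6.27 and 5.43 in spleen (adjusted p = 0.119). On both genes pancreas array 2 was the lowest pancreas array, as for the Igkc-listing κ probe sets.

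Jchain, which encodes the chain that joins the units of secreted IgA and IgM, was the only one of 5 measured plasma cell markers that passed the test. It was at 8.85, 8.54 and 7.41 in pancreas, against 5.09, 4.85 and 4.93 in spleen, at least 4.85-fold higher (adjusted p = 0.00782). Its lowest pancreas array was array 3, as for the 4-symbol heavy chain and Igkv1 probe sets. Mzb1, an endoplasmic reticulum protein of antibody-secreting cells, was at 6.39, 7.08 and 6.31 in pancreas, against 6.16, 6.28 and 5.91 in spleen, without passing (adjusted p = 0.835). Tnfrsf17, the plasma cell survival receptor BCMA, was below background on all arrays. The order of the pancreas arrays differed within this list. Array 3 was the lowest for Jchain and Mzb1, but array 1 was the lowest for Derl3, Sdc1 and Tnfrsf17. The summed intensity of the 5 markers was 705, 743 and 463 in pancreas, against 280, 288 and 252 in spleen. Of 16 measured macrophage and dendritic cell genes, 5 lay wholly higher in pancreas, 4 were higher at an unadjusted p under 0.05 and 1 passed the test. It was Lyz2, a lysozyme of myeloid cells, at 8.04, 7.79 and 7.94 in pancreas, against 6.27, 5.69 and 6.10 in spleen, 3.74-fold higher (adjusted p = 0.00778). Over the 16 macrophage and dendritic cell genes the median log2 fold change was 0.08. Of these genes, 10 had a higher mean in pancreas and 8 were below background on all arrays. The part of B cells, plasma cells and myeloid cells in the immunoglobulin values was not tested.

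Within the T cell receptor class, the γ chain stood at the upper end. Probe sets 10403821 and 10407940 both list Trgv2, Trgv4 and Trgv6, and neither reading can be given to one of them. These probe sets share 9 annotated transcripts and are not independent readings. The first was at 8.94, 7.93 and 9.24 in pancreas, against 7.03, 7.18 and 7.28 in spleen, 2.92-fold higher (log2 fold change 1.54 ± 0.31 SE, adjusted p = 0.108). The second was at 8.62, 7.42 and 8.80 in pancreas, against 6.76, 6.83 and 6.88 in spleen, 2.74-fold higher (adjusted p = 0.152). Both lay wholly higher in pancreas, neither passed the test, and both passed without pancreas array 2 (adjusted p = 0.0243 and 0.0230), their lowest pancreas array. Trgv1 was at 7.24, 5.95 and 6.90 in pancreas, against 5.67, 6.01 and 5.77 in spleen, and the tissues overlapped (adjusted p = 0.503).

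Among segments named for the δ locus alone, Trdv2-2 was the member measured. It was below background on all arrays, at 4.96, 5.04 and 4.60 in pancreas and at 4.70, 5.04 and 4.83 in spleen. The α probe sets 10414793 and 10414778 also list a segment named for use by both α and δ chains (Trav16d-dv11 and Trav14d-3-dv8), so they may read δ chain RNA too. Of 5 measured markers of γδ and innate-like T cells, 0 passed the test (limma) and 1 was higher at an unadjusted p under 0.05, namely Blk, which is also on the B cell list, with a median log2 fold change of 0.14 and a summed intensity of 334 to 440 in pancreas, against 311 to 368 in spleen. Sox13, a transcription factor of γδ T cells, was at 6.86, 7.14 and 7.24 in pancreas, against 7.15, 7.05 and 7.03 in spleen. The part of γδ T cells in the γ chain values was not tested.

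**Figure D4:**
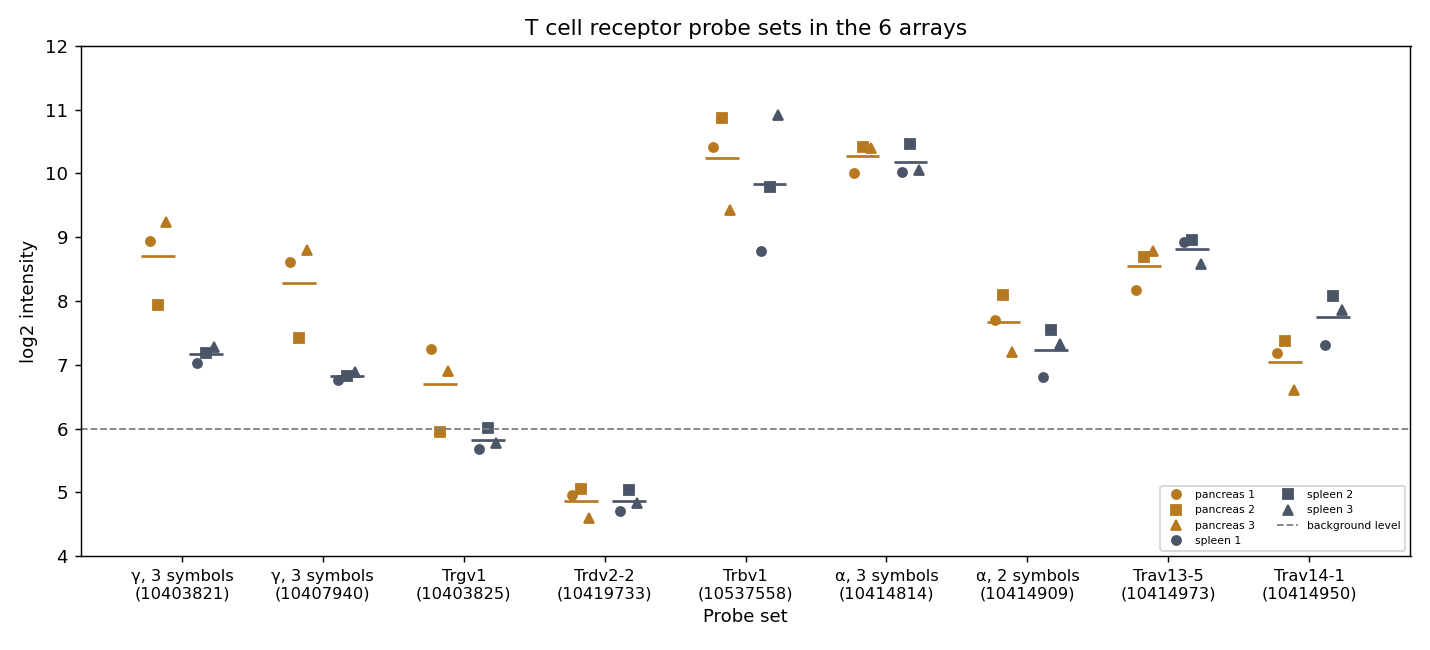
Log2 intensity of 9 T cell receptor probe sets on the 6 arrays, pancreas left of spleen for each probe set, with the mean of 3 arrays as a bar and the background level of 5.99 as a dashed line. Both 3-symbol γ probe sets have every pancreas array above every spleen array, whereas Trbv1 and the α probe sets overlap between tissues.

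Differences at the α locus were small, with 29 of the 30 α probe sets within 0.5 of no change on the log2 scale. Of the 30 α probe sets 28 were above background on all 6 arrays, and the log2 fold changes of the 30 ran from -0.70 to 0.44 with a median of 0.17. None passed the test over all probe sets (limma), 0 lay wholly higher or wholly lower, and at an unadjusted p under 0.05 there were 0 higher and 1 lower. The probe set with the largest positive difference, 10414909, which lists Trav3n-3 and Trav3-3, was at 7.70, 8.10 and 7.20 in pancreas, against 6.81, 7.54 and 7.33 in spleen, with a 95% interval of the log2 fold change from -0.17 to 1.05. A probe set among those with the highest signal of the class, 10414814, which lists Trav3n-3, Trav6d-6 and Trav3-3, was at 10.00, 10.41 and 10.39 in pancreas, against 10.02, 10.46 and 10.05 in spleen. The interval of its log2 fold change ran from -0.34 to 0.53. Probe set 10414955, with 4 symbols, was at 10.01, 10.39 and 10.06 in pancreas, against 9.47, 10.11 and 10.07 in spleen.

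The largest difference in the other direction was at Trav14-1. Probe set 10414950 was at 7.19, 7.37 and 6.60 in pancreas, against 7.30, 8.09 and 7.86 in spleen, and pancreas array 2 lay above spleen array 1. Its log2 fold change of -0.70 did not pass the test (adjusted p = 0.587), and a second probe set naming Trav14-1 alone was below background on all arrays. Trav13-5 was at 8.17, 8.70 and 8.79 in pancreas, against 8.92, 8.96 and 8.58 in spleen (log2 fold change -0.26, and -0.07 without pancreas array 1). A 4-symbol α probe set, 10414778, was at 8.22, 8.57 and 8.10 in pancreas, against 8.11, 8.79 and 8.75 in spleen (-0.25, and between -0.47 and -0.13 with 1 array left out). The values of 10414793 (-0.08) and 10414711 (-0.07) changed sign when 1 array was left out.

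The α probe sets shared an order of arrays within each tissue. Pancreas array 2 was the highest pancreas array for 24 of the 30, and spleen array 2 was the highest spleen array for 29 of the 30, whereas over all probe sets these arrays were the highest of their tissue for 6449 and 6385 of 24922. Of the 35 T cell receptor probe sets 29 had a higher mean in pancreas, a count that was 21 without spleen array 1. Because 19 of the 30 α probe sets list the same pair of symbols, these counts do not stand for 30 separate segments.

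Trbv1, the only β chain V segment named, varied more within each tissue than between them. It was at 10.42, 10.87 and 9.43 in pancreas, against 8.79, 9.79 and 10.92 in spleen. The SD was 0.74 in pancreas and 1.07 in spleen, and the log2 fold change of 0.41 had a 95% interval from -0.79 to 1.61. Its sign turned without spleen array 1, to -0.12.

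The invariant partners of the receptor chains were measured as well. Of 9 genes of the T cell receptor complex and its coreceptors 0 passed the test over all probe sets (limma) and 0 had an unadjusted p under 0.05, and the median log2 fold change was -0.04 with a range of -0.19 to 0.17. Cd3e, an invariant signalling subunit that assembles with the α and β chains, was at 12.48, 12.60 and 12.65 in pancreas, against 12.57, 12.85 and 12.61 in spleen. Of 10 measured genes of V(D)J recombination and class switching, 0 passed the test and 0 had an unadjusted p under 0.05, with a median log2 fold change of -0.11. Rag1 and Rag2, which encode the recombinase that cuts the segments, and Dntt, which adds bases at the junctions, were below background on all arrays.

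The remaining members by name are no receptor genes. Tradd was at 7.31, 7.50 and 6.76 in pancreas, against 6.63, 6.98 and 7.52 in spleen, and Ighmbp2 at 7.16, 7.04 and 6.92 in pancreas, against 7.03, 7.16 and 7.31 in spleen. Neither passed the test, and both overlapped between tissues.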

How the data were processed

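The values were deposited as linear probe-set intensity values of Affymetrix Mouse Gene 1.0 ST arrays, which the authors obtained by RMA in the Affymetrix Power Tools suite (named in the submitters' processing notes; versions are not given in the sources used here). Per the labels, amplification used the Ambion WT Expression Kit. Among other steps, RMA corrects background and summarises the probes of a set. A probe set whose probes match several V segments can thus read them together. The deposited arrays did not share 1 distribution, with interquartile ranges of the log2 values from 2.23 to 3.07. The reason was not tested. Here log2 was taken with no pseudocount or filter. The platform annotation names 1 gene for 21425 probe sets, several for 1399 and none for 2098, and 21347 of the first matched RefSeq GRCm38.p6 by gene ID with 0 symbols changed. All 24922 probe sets entered limma 3.58.1 (R 4.3.3), lmFit and eBayes, without covariates, two-sided, with Benjamini-Hochberg adjustment. The fit had 4 residual degrees of freedom and 4.67 from the prior. Log2 fold changes are pancreas over spleen, with standard errors and 95% intervals from that fit. The number of arrays limits the precision.

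Background was an intensity of 63.5, the 95th percentile of the mean over 1208 olfactory and vomeronasal receptor probe sets. Where the lower tissue's mean was below it, the fold is a lower bound, with its arrays raised to that level. The bound allows for dim values and not for the spread between arrays. Context genes used the brightest probe set naming 1 gene. Named probe sets were the single-symbol constant regions, those past the test, the 5 largest differences in each direction and the 3 highest signals per class, plus Tradd and Ighmbp2. Other members, and Foxp3, Cd3e, Mzb1, Tnfrsf17, Sox13, Rag1, Rag2 and Dntt, were chosen after their values were seen, to account for each chain and list. Members and lists were chosen with earlier results of these data known. The fit was also tried on simulated data, and no result given here rests on that trial. Alternatives were normalization, a filter on dim or multi-gene probe sets, the variance model, array weights, leaving out single arrays, and a block for the replicate number. Averaging probe sets with the same symbol list was chosen after seeing the data. Figures used matplotlib 3.10.9 in Python 3.11.15.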

Additional observations from a re-analysis of the deposited data

How the results depend on the processing

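The number of all probe sets past the test was 76 as reported, 22 with each array centred on its median, 26 with the replicate block, 127 with a trended and robust variance, 162 over probe sets above background and 1923 with array weights, which ran from 0.338 (pancreas array 3) to 4.05 (pancreas array 2). Those weights came from limma's gene-by-gene method, since its default REML method did not converge. With 1 array left out it ran from 27 to 150. Immunoglobulin probe sets past the test numbered 1 as reported, 0 with median centring, 0 over probe sets naming 1 gene, 3 over probe sets above background, 9 with array weights, and 0 to 3 with 1 array left out. For the T cell receptor the count was 0 as reported, 1 over probe sets above background, 1 with array weights, and 0 to 2 with 1 array left out. The immunoglobulin median log2 fold change of 1.03 was 0.59 with array weights, 1.52 over probe sets above background, 0.51 over those naming 1 gene, and 0.56 to 1.26 with 1 array left out. The background filter used the mean over all 6 arrays and kept 13 immunoglobulin probe sets. Only 3 of the class had means above background in both tissues, so most of the 13 passed through their pancreas values. The 3 immunoglobulin calls were among these, and the 1.52 was partly set by the filter. The T cell receptor median of 0.17 ran from 0.02 to 0.30 with 1 array left out. With the replicate block, 1 immunoglobulin and 0 T cell receptor probe sets passed. The values gave no sign that equal numbers pair the samples. The correlation of their deviations was -0.45 for number 1, 0.02 for number 2 and -0.68 for number 3. No sample correlated best with its own number. With 3 arrays per tissue these correlations cannot settle whether the samples were paired. With 1 array left out, log2 fold changes changed sign for Trbv1 (range -0.12 to 0.95), α probe sets 10414793 (-0.20 to 0.0705) and 10414711 (-0.19 to 0.11) and Tradd (-0.0599 to 0.38). Over the named probe sets and alternatives, 287 values kept direction and side of the threshold, 11 came to pass, 5 no longer passed and 7 changed sign. The cause of these changes was not tested beyond the smaller number of arrays or probe sets.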

Other observations

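A pair of probe sets was left out of the members because each lists a symbol outside the naming rule. One lists Igkv10-96 with the joining segment Igkj1. It was at 11.11, 7.37 and 9.14 on pancreas arrays 1 to 3, against 6.53, 6.62 and 6.45 on spleen arrays 1 to 3, 6.37-fold higher in pancreas without passing the test (limma adjusted p = 0.292). Its order of pancreas arrays was that of the probe set naming Igkv10-96 alone. The other lists Igkv9-120, Igk-V21, Igkv1-117 and the kinase gene Map3k20, and was at 6.37, 7.07 and 6.36 in pancreas, against 4.08, 5.24 and 3.32 in spleen, at least 1.53-fold higher (adjusted p = 0.0817). In both, every pancreas array lay above every spleen array.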
